A study of Mus musculus with 9 samples.

Results

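10 genes of the inflammasome and pyroptosis pathway were followed across the macrophage lines: the sensors Nlrp3, Nlrp1b, Aim2, Nlrc4, Naip2, and Naip5, the adaptor Pycard (ASC), the caspases Casp1 and Casp4 (caspase-11 of the mouse), and the pore-forming Gsdmd (gasdermin D). They were chosen by name for their roles, with earlier results of these data known, and all 10 were among the 24411 genes of the deposited table. The lines came from C57BL/6 mice and were genetically unmodified. The YS lines were expanded from yolk sac of E9.5 embryos, the FL lines from fetal liver of E14.5 embryos, and the BM lines from bone marrow of adults. All were grown long term with recombinant human M-CSF, and they were sequenced without LPS or IFN-γ. Cells of more than one mouse were pooled at the start, and a line was the bulk culture of a separate dish or well. There were 3 lines per origin (YS1 to YS3, FL1 to FL3, and BM1 to BM3) with 1 RNA-seq library each. Since the 3 lines of an origin are not stated to come from separate animals, p-values measure only the spread between lines.

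An inflammasome is a protein complex that forms in the cytosol when a sensor meets a microbial product or a sign of damage. NLRP3 and AIM2 recruit ASC, NLRP1B can act with or without it, and NAIP proteins bind bacterial flagellin or type III secretion proteins and then engage NLRC4, each route leading to caspase-1. Caspase-1 matures IL-1β and IL-18 and cleaves gasdermin D, whose pores cause the lytic death called pyroptosis, and caspase-11 cleaves gasdermin D after it binds intracellular LPS. These are proteins that await a trigger, so an mRNA level describes the parts a resting macrophage holds and not the activity of the complex.

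The sequences before the transcription start are shown for the genes on which the results below turn: Nlrc4 and its partners Naip2 and Naip5, the neighbours Nlrp1b and Nlrp1a, Casp4, and Aim2, the steadiest of the 10. They are RefSeq sequences of GRCm38.p6, written 5′ to 3′ on the strand of the gene up to the base before the annotated start. A promoter window was found for 9 of the 10 genes, all but Gsdmd. The windows lie at chr17:74459109-74459188 (minus strand), chr13:100202123-100202202 (minus), chr13:100247337-100247416 (minus), chr11:71230734-71230853 (minus), chr11:71144705-71144824 (minus), chr9:5308729-5308848 (plus), and chr1:173420484-173420603 (plus). In Nlrc4, Naip2, Naip5, and Aim2, capitals mark AGGAAGTG, a core bound by ETS family factors such as PU.1, or its reverse complement. In Nlrp1b and Nlrp1a, capitals mark GAGGAAGT, a PU.1 site that overlaps that core in Nlrp1b, and in Casp4 they mark a stretch with overlapping matches to the kappaB consensus.
Nlrc4: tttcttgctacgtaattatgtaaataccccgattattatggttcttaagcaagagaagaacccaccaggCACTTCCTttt
Naip2: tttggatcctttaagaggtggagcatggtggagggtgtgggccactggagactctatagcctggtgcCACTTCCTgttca
Naip5: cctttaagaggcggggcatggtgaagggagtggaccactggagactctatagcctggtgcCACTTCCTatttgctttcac
Nlrp1b: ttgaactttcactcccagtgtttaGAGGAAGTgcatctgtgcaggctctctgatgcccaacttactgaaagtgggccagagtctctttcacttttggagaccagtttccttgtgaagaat
Nlrp1a: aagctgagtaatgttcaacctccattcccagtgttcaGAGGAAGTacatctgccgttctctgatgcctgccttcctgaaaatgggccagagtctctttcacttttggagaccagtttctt
Casp4: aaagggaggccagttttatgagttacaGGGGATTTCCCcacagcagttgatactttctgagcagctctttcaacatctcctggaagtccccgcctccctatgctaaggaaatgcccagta
Aim2: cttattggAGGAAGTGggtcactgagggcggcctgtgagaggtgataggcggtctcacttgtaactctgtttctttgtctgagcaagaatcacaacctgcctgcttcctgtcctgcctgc

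Searched on both strands of the 250 bases before the start, AGGAAGTG was present in 3.14% of 32851 RefSeq promoter windows and in 6 of the 9 genes, namely Aim2, Naip2, Naip5, Nlrc4, Nlrp1b, and Pycard. It lay 11 to 4 bases before the start of Nlrc4, 13 to 6 bases before that of Naip2, and 20 to 13 bases before that of Naip5, on the opposite strand in all 3 genes. The bases after the RefSeq starts of Naip2 and Naip5 were not found in their GENCODE M21 transcripts, unlike those of the other 7 genes, so positions relative to these 2 starts are less certain. GAGGAAGT was found in 2.44% of windows and in Aim2, Nlrp1b, and Pycard. The kappaB consensus was found in 3.9% of windows and in Casp4, Naip5, and Nlrp3, and in Casp4 its matches spanned 93 to 83 bases before the start. The interferon response motif, searched as GAAA repeated after 2 bases and present in 2.98% of windows, was found in none of the 9 genes. Aligned over 250 bases, the Nlrp1a and Nlrp1b windows were 83.3% identical and the Naip2 and Naip5 windows 56.9%, against 48% for Casp1 and Casp4. These matches describe letters in a window and not sites in use. The motifs were chosen with the promoter windows in view, so the counts beside the shares are a description and no test. Each share counts windows, whereas a gene was counted if any of its windows held the motif.

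The labelled cell type was checked against markers. All 8 macrophage markers passed the filter on low values in these cells. Csf1r, the M-CSF receptor, ranged from 1086 to 2441 TPM. Not all were as even, since Fcgr1 ranged from 1.68 to 330 TPM, lowest in the BM lines, and Lyz2 from 1163 to 21976 TPM. None of the lymphocyte, mast cell, or fibroblast markers passed, whereas 1 of 5 dendritic cell markers (Zbtb46), 1 of 5 hepatocyte markers (Afp, 1.03 to 20.45 TPM), 1 neutrophil marker (S100a8), 2 of 5 endothelial markers (Kdr and Cdh5), and 2 of 5 erythroid markers (Hba-a1 and Epor) did. Libraries of one origin correlated with r from 0.912 (YS1 and YS3) to 0.985 on the log2 scale, with no identical pair. Libraries of different origins overlapped that range, from 0.847 (YS1 and BM3) to 0.949 (YS2 and FL1). Between 13345 and 14322 genes were above 0 in a library. BM2 stood apart by its erythroid markers, which summed to 228.5 TPM against at most 15.5 TPM in any other library. TPM (transcript abundance scaled to one total per library) divides reads by transcript length, so levels of different genes can be compared, but it keeps no record of read depth. Tests used log2(TPM + 1), a scale that understates changes of low genes, on the 11753 genes that reached 1 TPM in 3 or more of the 9 libraries. A gene was called at a false discovery rate under 0.1 (limma, Benjamini-Hochberg adjustment over all genes tested) with a change of more than 2-fold. In bulk samples, fewer cells that express a gene and less RNA per cell cannot be told apart.

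All 10 genes passed the filter. Casp1 was the highest of them in each of the 9 lines, with a mean over lines of 261 TPM that exceeded the mean of 94.7% of the genes tested. Gsdmd (109 TPM), Pycard (69.6 TPM), Casp4 (64.3 TPM), and Aim2 (55.2 TPM) followed in the order of their means. Nlrc4, at 14.2 TPM, had the lowest mean and ranked between 8 and 10 in each line. The 6 sensors together amounted to between 187 and 238 TPM in every line, and the adaptor, caspases, and gasdermin D to between 357 and 882 TPM, the highest sum in YS3.

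**Figure D1:**
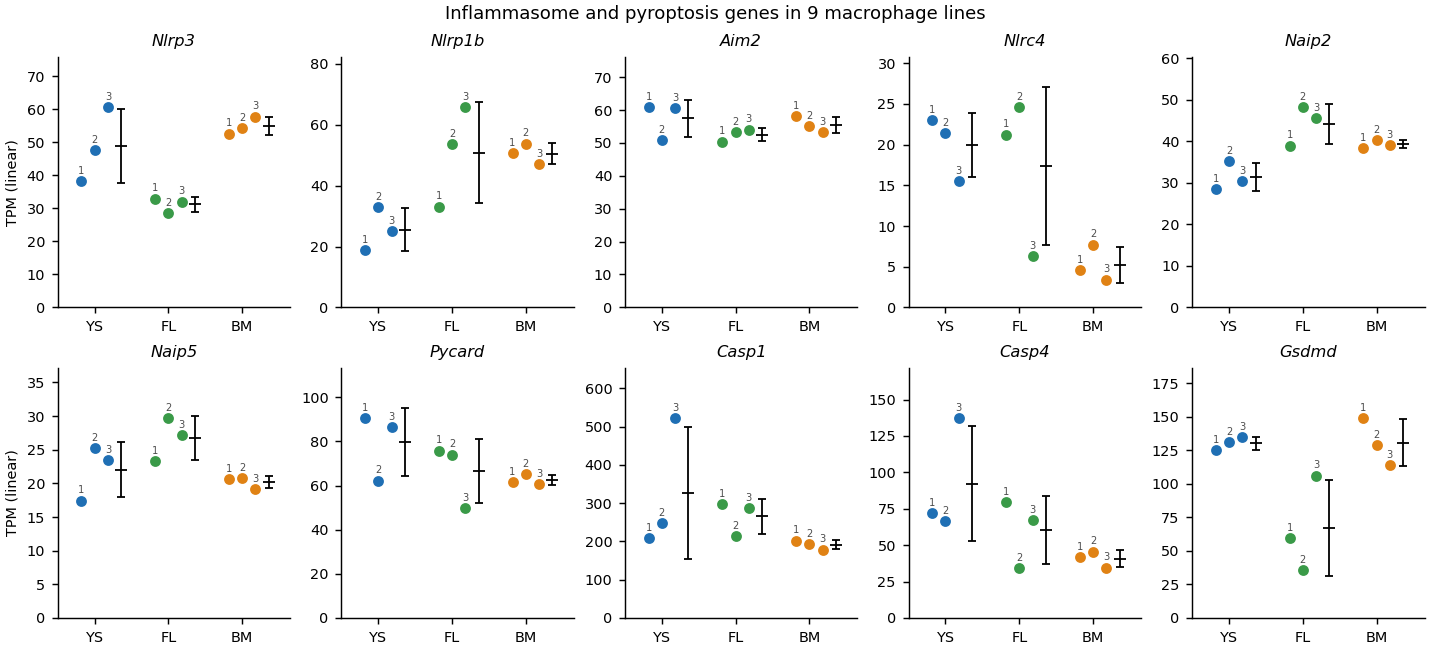
TPM (linear axes from 0) of the 10 genes in each of the 9 lines, with the line number above each point and the mean ± SD of the 3 lines of an origin beside them. Nlrc4 was at 15.55 TPM or more in each YS line and at 7.71 TPM or less in each BM line, whereas Aim2 kept between 50.4 and 60.9 TPM in all 9.

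The genes differed in how far their levels spread. Nlrc4 had the largest SD over the 9 lines, 1.00 on the log2 scale, which exceeded the SD of 90.9% of the genes tested. Gsdmd (SD 0.67), Casp4 (0.64), and Nlrp1b (0.58) came next. Aim2 had an SD of 0.10, and only 1.00% of the genes tested had a smaller one. The highest line exceeded the lowest 7.24-fold for Nlrc4 and 1.21-fold for Aim2.

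The 3 origins were compared in pairs. In YS against BM lines, 2 of the 10 genes were called, Nlrc4 and Casp4, both higher in YS lines, where 12.8% of all genes tested were called (7.57% higher and 5.22% lower). In FL against BM lines, 2 of 10 were called, Nlrc4 higher and Gsdmd lower in FL lines, against 10.3% of all genes (6.01% higher and 4.3% lower). In YS against FL lines, Gsdmd alone was called, higher in YS lines, against 3.79% of all genes (1.95% higher and 1.85% lower). At the false discovery rate without the fold limit, 4, 3, and 4 of the 10 passed in these comparisons, against 37.9%, 27.6%, and 12.8% of all genes. The levels of the 2 groups did not overlap for 5, 4, and 4 of the 10 genes in these comparisons, in that order, against 49%, 49.5%, and 26.1% of the genes tested. For the 10 genes the median log2 fold change was 0.07, 0.11, and 0.23, beside 0.11, 0.09, and 0.02 for all genes. Their median absolute log2 fold change was 0.32, 0.42, and 0.42, beside 0.36, 0.30, and 0.27. The comparisons share libraries, and their values are therefore given side by side. With 3 lines against 3, an exact two-sided permutation test cannot give a p below 0.1, and 13 of the 30 tests of single genes reached that value.

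**Figure D2:**
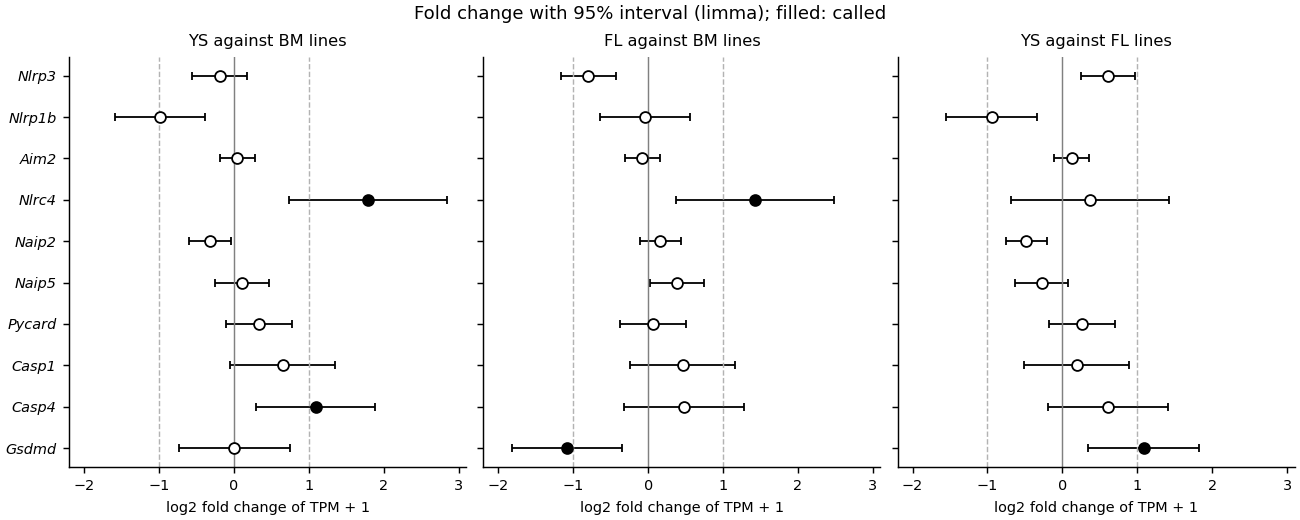
Log2 fold change of TPM + 1 with its 95% interval from limma for the 10 genes in the 3 comparisons. Filled points were called, open points were not, and dashed lines mark a 2-fold change. Nlrc4 lay to the right in both comparisons with BM lines, and Gsdmd lay near 0 in YS against BM and on opposite sides in the comparisons that involve FL lines.

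Among the sensors, Nlrc4, which joins NAIP proteins to caspase-1, was higher in YS lines than in BM lines. Its level was 23.0, 21.4, and 15.55 TPM in YS1 to YS3, 21.2, 24.6, and 6.33 TPM in FL1 to FL3, and 4.57, 7.71, and 3.40 TPM in BM1 to BM3. The YS and BM lines did not overlap. FL1 and FL2 were at the level of the YS lines, whereas FL3 was within the range of the BM lines. Between YS and BM lines the mean TPM differed 3.83-fold (log2 fold change 1.79, SE 0.46, 95% interval 0.74 to 2.85, limma adjusted p = 0.023), and the call held in all 20 alternatives tried. Between FL and BM lines the log2 fold change was 1.43 (SE 0.46, limma adjusted p = 0.062) with overlapping groups. That call was lost without FL1 (adjusted p = 0.17), FL2 (0.17), BM1 (0.17), or BM3 (0.2). YS and FL lines differed by 0.36 (95% interval -0.69 to 1.42, limma adjusted p = 0.64), and without FL3 the sign turned, at -0.20.

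Some markers of other cell types moved with the same contrast, the endothelial marker Kdr among them, and others did not. The endothelial markers summed to 5.37 to 56.0 TPM in the YS lines, 18.9 to 51.8 TPM in the FL lines, and 0.08 to 1.7 TPM in the BM lines. Of the 5, 2 (Kdr and Cdh5) passed the filter, while Emcn was listed at 0 in every library. Cdh5 was called higher than in BM lines in FL lines (1.095, limma adjusted p = 0.037) but not in YS lines (0.66, limma adjusted p = 0.14). Pecam1 was at 4.91, 8.17, and 0.29 TPM in the YS lines, 0.25, 0.12, and 0.10 TPM in the FL lines, and at most 0.56 TPM in the BM lines. Tek did not exceed 0.04 TPM. Kdr was at 0.29, 16.1, and 54.35 TPM in YS1 to YS3, 17.4, 17.5, and 50.4 TPM in FL1 to FL3, and 0.03, 0.86, and 0.08 TPM in BM1 to BM3. It was high in 5 of the 6 YS and FL lines and low in the BM lines, as Nlrc4 was in 5 of those 6, but the exception was YS1 for Kdr and FL3 for Nlrc4. Of the dendritic cell markers, which summed to 7.37 to 8.32 TPM in the YS lines, 2.88 to 7.5 TPM in the FL lines, and 3.47 to 4.1 TPM in the BM lines, Zbtb46 alone of 5 passed the filter and Flt3 was listed at 0 in every library. Zbtb46 was at 6.94, 7.09, and 6.03 TPM in YS1 to YS3, 6.41, 5.00, and 2.23 TPM in FL1 to FL3, and 2.91, 2.69, and 2.55 TPM in BM1 to BM3 (YS against BM 1.05, limma adjusted p = 0.028), and its FL3 value was near the BM lines, as that of Nlrc4 was. The erythroid marker Epor was also called higher in YS (1.54, limma adjusted p = 0.077) and FL (1.88, limma adjusted p = 0.052) than in BM lines. Hba-a1, the other erythroid marker that passed the filter, was lower in YS (-1.40) and FL (-2.435) than in BM lines. Neither change was called, and Hba-a1 was at 215 TPM in BM2. S100a8 was called lower in YS (-1.55, limma adjusted p = 0.036) and higher in FL (1.98, limma adjusted p = 0.018) than in BM lines. Afp took the same directions (-0.68 and 0.86) without a call. Among the macrophage markers, Fcgr1 was called higher in YS (4.645, limma adjusted p = 0.0076) and FL (4.02, limma adjusted p = 0.014) than in BM lines. It was at 122 to 330 TPM in the YS lines, 110 to 172 TPM in the FL lines, and 1.68 to 42.1 TPM in the BM lines. Against BM, Mertk was called higher in FL lines (1.99, limma adjusted p = 0.0059) and Lyz2 lower in YS lines (-1.60, limma adjusted p = 0.054). The other macrophage markers were not called against BM. The part of these markers in the Nlrc4 result was not tested.

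Naip2 and Naip5, which detect type III secretion rods and flagellin, did not follow Nlrc4. Naip2 was at 28.5, 35.2, and 30.5 TPM in the YS lines, 39.0, 48.25, and 45.5 TPM in the FL lines, and 38.4, 40.3, and 39.2 TPM in the BM lines. Each YS line was below each line of the other origins, by a log2 fold change of -0.32 against BM (SE 0.12, limma adjusted p = 0.081) and of -0.48 against FL (SE 0.12, limma adjusted p = 0.059), both less than 2-fold. Naip5 was at 17.4, 25.2, and 23.45 TPM in the YS lines, 23.3, 29.8, and 27.2 TPM in the FL lines, and 20.6, 20.8, and 19.2 TPM in the BM lines. The FL lines were above the BM lines without overlap (log2 fold change 0.38, SE 0.16), but the limma adjusted p was 0.13. Naip6, their neighbour on chromosome 13, ranged from 13.1 to 18.6 TPM with no call.

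The ratio of Nlrc4 to the sum of Naip2 and Naip5 was therefore 0.29 to 0.50 in YS lines and 0.06 to 0.13 in BM lines. In FL lines it was 0.34, 0.32, and 0.09. The ratio separated YS from BM lines and placed FL3 beside the BM lines.

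The Naip values carry an uncertainty that those of Nlrc4 do not. In GENCODE M21, 23.8% of the 75-base windows of Naip5 transcripts and 10.7% of those of Naip2 also occur in a transcript of another gene, most often Naip6 for Naip5 and Naip1 for Naip2. Reads of these windows must be divided between genes by the quantifier. No window of Nlrc4, Nlrp3, Aim2, Pycard, Casp1, Casp4, or Gsdmd was shared, and 0.445% of those of Nlrp1b were, all with Nlrp1a.

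**Figure D3:**
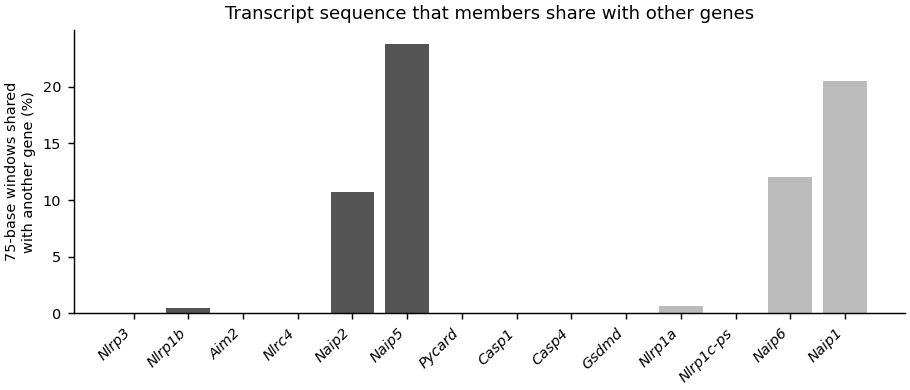
Share (%) of the 75-base windows of each gene's GENCODE M21 transcripts that also occur in transcripts of another gene, on a linear axis from 0. Dark bars are genes of the set and light bars their close relatives. Naip5 (23.8%), Naip1 (20.5%), Naip6 (12%), and Naip2 (10.7%) stand out. Nlrp1a (0.65%) and Nlrp1b (0.445%) lie close to the axis, and the other genes shared no window.

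Nlrp1b, a sensor activated by degradation of its N-terminal part, was lowest in YS lines. It was at 18.75, 33.0, and 25.0 TPM in YS1 to YS3, 33.1, 53.7, and 65.8 TPM in FL1 to FL3, and 50.6, 53.8, and 47.1 TPM in BM1 to BM3. YS and BM lines were apart, and YS2 and FL1 nearly met. The log2 fold change was -0.99 in YS against BM (SE 0.27, 95% interval -1.59 to -0.38, limma adjusted p = 0.027) and -0.95 in YS against FL (SE 0.27, limma adjusted p = 0.074). Both passed the false discovery rate and missed the 2-fold limit. The change against BM passed it under another pseudocount (-1.01), under quantile normalization (-1.12) or median-of-ratios scaling (-1.10), without YS2 (-1.18), and without BM3 (-1.04). FL and BM lines differed by -0.04 (limma adjusted p = 0.93), and without FL1 by 0.23.

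Nlrp1a and the pseudogene Nlrp1c-ps lie on either side of Nlrp1b on chromosome 11. Nlrp1a ranged from 15.2 to 26.2 TPM and was not called (YS against BM -0.31, limma adjusted p = 0.21). The ratio of the neighbours was lowest in YS lines. Nlrp1b was 1.04 to 1.43 times Nlrp1a in YS lines, 1.80 to 2.17 times in BM lines, and 1.58, 2.87, and 3.74 times in FL1 to FL3, a range that holds the BM lines. Nlrp1c-ps went with Nlrp1b, at 12.1, 12.6, and 9.30 TPM in the YS lines and 21.98, 19.9, and 19.0 TPM in the BM lines (log2 fold change -0.80, SE 0.25, limma adjusted p = 0.045, less than 2-fold). The ratio of Nlrp1b to Nlrp1c-ps was 1.56 to 2.71 over all 9 lines.

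Nlrp3, the sensor of potassium efflux and many damage signals, was lowest in FL lines. It was at 38.3, 47.6, and 60.7 TPM in the YS lines, 33.0, 28.5, and 32.1 TPM in the FL lines, and 52.6, 54.3, and 57.8 TPM in the BM lines. No FL line reached the level of a YS or BM line, while YS and BM lines overlapped. FL against BM gave a log2 fold change of -0.80 (SE 0.16, 95% interval -1.17 to -0.43, limma adjusted p = 0.01) and YS against FL gave 0.61 (SE 0.16, limma adjusted p = 0.066), both less than 2-fold. YS against BM gave -0.19 (SE 0.16, limma adjusted p = 0.4).

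Aim2, which binds DNA in the cytosol, did not differ beyond the spread of the lines. Its mean ± SD was 57.4 ± 5.69 TPM in the YS lines, 52.5 ± 1.92 TPM in the FL lines, and 55.5 ± 2.40 TPM in the BM lines (n = 3 lines each). The 95% intervals of its log2 fold changes were -0.19 to 0.28 for YS against BM and -0.31 to 0.16 for FL against BM, which exclude a 2-fold change.

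Of the adaptor and effectors, Pycard showed no call. It was at 90.7, 62.2, and 86.4 TPM in the YS lines, 75.85, 74.0, and 49.7 TPM in the FL lines, and 61.5, 65.3, and 60.7 TPM in the BM lines, with overlap in every comparison. The largest of its log2 fold changes was 0.33 in YS against BM (SE 0.19, limma adjusted p = 0.23).

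Casp1, the caspase shared by the canonical inflammasomes, was at 208, 248, and 523 TPM in the YS lines, 297, 213, and 288 TPM in the FL lines, and 202, 192, and 178 TPM in the BM lines. Each YS and FL line exceeded each BM line, YS1 by a small margin, and YS3 exceeded all others. The changes against BM did not pass the test, at 0.65 for YS (SE 0.31, 95% interval -0.05 to 1.35, limma adjusted p = 0.14) and 0.46 for FL (SE 0.31, limma adjusted p = 0.33). The adjusted p of YS against BM was 0.053 without YS1 (0.92), and that of FL against BM was 0.049 with only the 6 libraries compared and 0.057 without YS3, all from limma and all under 2-fold. Without YS3 the change of YS against BM was 0.25 (limma adjusted p = 0.27), and that of YS against FL turned from 0.19 to -0.21.

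Casp4, the LPS receptor of the noncanonical route, lies next to Casp1 on chromosome 9 and was higher in YS lines than in BM lines. It was at 72.1, 66.6, and 138 TPM in the YS lines, 79.6, 34.35, and 66.9 TPM in the FL lines, and 42.0, 45.6, and 34.5 TPM in the BM lines. The YS lines were above the BM lines, and FL2 was as low as the lowest BM line. The mean TPM of YS lines was 2.26-fold that of BM lines (log2 fold change 1.09, SE 0.35, 95% interval 0.29 to 1.89, limma adjusted p = 0.049). The call was lost without YS3 (0.76, adjusted p = 0.11), BM1 (1.11, adjusted p = 0.12), or BM3 (0.98, adjusted p = 0.15), and under quantile normalization (0.94) or median-of-ratios scaling (0.98) the change fell below 2-fold. FL lines did not differ from BM lines beyond the spread (0.48, SE 0.35, limma adjusted p = 0.38).

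Casp1 and Casp4 varied together over the 9 lines (Pearson r = 0.886 of log2 values, given as a description, since the lines fall into 3 origins). The ratio of Casp4 to Casp1 was 0.26 to 0.35 in YS lines, 0.16 to 0.27 in FL lines, and 0.19 to 0.24 in BM lines, so that YS3, the highest line for both, did not have the highest ratio. Casp12, the next gene on the other side of Casp4, was listed at 0 in all lines but YS3, where it was at 0.07 TPM.

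Gsdmd, whose cleaved product forms the pores, was lower in FL lines. It was at 125, 131, and 135 TPM in the YS lines, 59.55, 35.5, and 106 TPM in the FL lines, and 149, 129, and 114 TPM in the BM lines. YS and BM lines shared one range, and the 3 FL lines were below all of them, FL3 by a small margin. The mean TPM of FL lines was 0.51 of that of BM lines (log2 fold change -1.08, SE 0.32, 95% interval -1.82 to -0.34, limma adjusted p = 0.048). The mean of YS lines was 1.94-fold that of FL lines, and on the log2(TPM + 1) scale the change was 1.09 (SE 0.32, 95% interval 0.35 to 1.82, limma adjusted p = 0.086). YS and BM lines differed by 0.004 (95% interval -0.74 to 0.74, limma adjusted p = 1).

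The FL values of Gsdmd were uneven, and its calls rested on single lines. Against BM the call was lost without FL1 (-1.07, adjusted p = 0.11), FL2 (-0.70, adjusted p = 0.084), BM1 (-0.98, adjusted p = 0.16), BM2 (-1.09, adjusted p = 0.11), or BM3 (-1.18, adjusted p = 0.1), all from limma. The call of YS against FL was lost in 13 of 20 alternatives, among them leaving out any one line other than FL3 (limma adjusted p from 0.13 to 0.17). S100a8, a neutrophil and monocyte gene, was also uneven between origins, at 10.49 to 25.1 TPM in the FL lines, 3.43 to 5.00 TPM in the BM lines, and at most 2.19 TPM in the YS lines. It was the 1 gene of its list to pass the filter, while S100a9 and Elane were listed at 0 in every library, and its part in the result was not tested.

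Set against Casp1, Gsdmd was at 0.64 to 0.74 of the Casp1 level in BM lines and at 0.17 to 0.37 in FL lines. In YS1 to YS3 this ratio was 0.60, 0.53, and 0.26. BM lines thus had the highest Gsdmd per Casp1, FL lines had little, and YS3 fell among the FL lines with its Casp1 of 523 TPM.

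**Figure D4:**
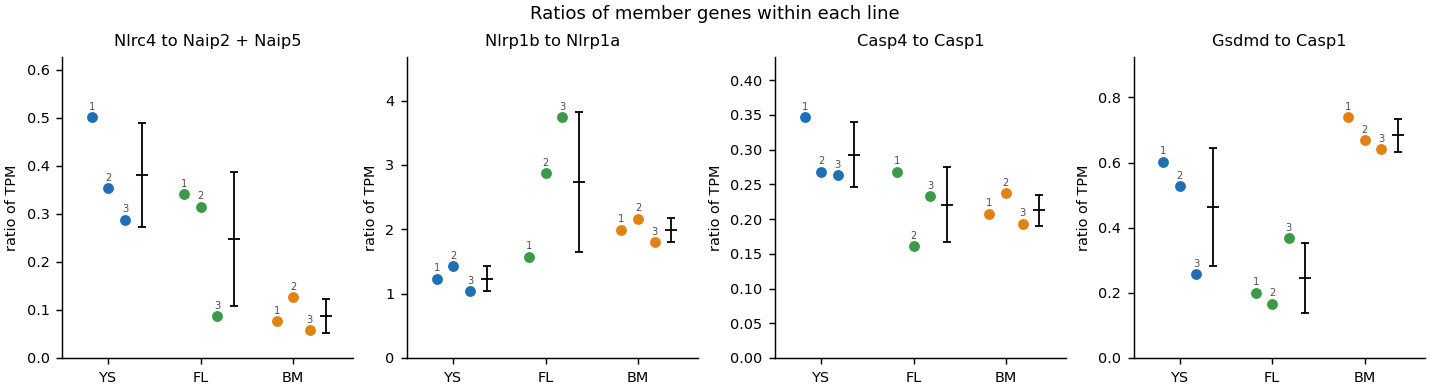
Ratios of TPM within each line (linear axes from 0), with the line number above each point and the mean ± SD of the 3 lines of an origin. The Nlrc4 ratio ran from 0.29 to 0.50 in YS lines and from 0.06 to 0.13 in BM lines, and the Gsdmd to Casp1 ratio from 0.64 to 0.74 in BM lines and from 0.17 to 0.37 in FL lines.

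By a rule that took the 3 genes with the highest Pearson r to each of the 2 most variable genes over the 9 lines, the patterns most like that of Nlrc4 were those of Hmga2-ps1 (r = 0.972), Ifi30 (0.954), and Senp7 (0.954). Ifi30, a lysosomal thiol reductase, was at 288, 262, and 202 TPM in the YS lines, 299, 268, and 157.5 TPM in the FL lines, and 154, 183, and 152 TPM in the BM lines, where FL3 lies with the BM lines as the choice by likeness to Nlrc4 entails. For Gsdmd they were Cdyl2 (0.941), Irak3 (0.937), and B4galnt1 (0.935). Irak3, a negative regulator of Toll-like receptor signalling, was at 18.3, 18.8, and 17.95 TPM in the YS lines, 10.3, 8.41, and 18.8 TPM in the FL lines, and 20.8, 14.9, and 19.3 TPM in the BM lines. Cdyl2 was at 0.04 and 0 TPM in FL1 and FL2 and between 3.2 and 4.56 TPM in the other lines. Among the 10 genes, Nlrp1b and Naip2 were the most alike pair (r = 0.915), and Nlrp1b and Pycard the most opposed (r = -0.824). The points of these correlations share the 9 libraries and the 3 origins.

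Of 80 other genes of the pathway, 65 passed the filter. In YS against BM lines 17 were called higher and 2 lower, or 29.2% of those tested against 12.8% of all genes, and in FL against BM lines 10 were called higher and 2 lower, or 18.5% against 10.3% of all genes. In YS against FL lines none was called by limma, against 3.79% of all genes. Without the fold limit, 6 of the 65 passed the false discovery rate, against 12.8% of all genes. An unadjusted limma p under 0.05 was reached by 17, a number that cannot be judged, since no share of all genes at that threshold is given here. The median log2 fold change of the 65 genes was 0.37, 0.37, and 0.14 in these comparisons, beside 0.11, 0.09, and 0.02 for all genes tested. The number called in FL against BM fell to 6 without FL1 or BM3, where 9.49% and 7.25% of all genes were called. It fell to 7 without FL3 or BM1, where 9.52% and 7.73% of all genes were called. The excess over all genes in FL against BM thus depended on single lines.

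Of the substrates and IL-1 family, 5 of 10 genes passed the filter. In YS against BM lines 2 of the 5 were called higher and 1 lower (12.8% of all genes were called). In FL against BM lines 1 of the 5 was called higher (10.3% of all genes were called). Il18, which caspase-1 matures, was at 39.2, 57.8, and 112 TPM in the YS lines, 77.4, 38.4, and 40.2 TPM in the FL lines, and 22.8, 30.45, and 17.6 TPM in the BM lines. It was higher in YS than in BM lines without overlap (log2 fold change 1.42, SE 0.41, limma adjusted p = 0.033). Il18bp, which binds IL-18 and is named here because it completes the count, rose with it (1.26, limma adjusted p = 0.0061). Il1b was low in these unstimulated cells. It was at 3.42, 1.03, and 3.31 TPM in the FL lines, listed at 0 in BM1 and BM3, and at 0.22 TPM in BM2, and it was called in FL against BM (1.66, SE 0.35, limma adjusted p = 0.012). Il1rn, the IL-1 receptor antagonist, was lower in YS than in BM lines (-1.48, SE 0.59, limma adjusted p = 0.093), with overlap and with YS1 at 7.59 TPM against 54.3 and 20.1 TPM in YS2 and YS3.

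Among other sensors, 8 of 15 genes tested were called higher in YS than in BM lines (12.8% of all genes were called) and 5 of 15 in FL than in BM lines (10.3% of all genes), and none was called lower. Nlrp1c-ps, given above, passed the false discovery rate as lower in YS than in BM lines. Ifi209 (listed as Pyhin1), of the same PYHIN family as Aim2, was at 34.8, 73.2, and 99.6 TPM in the YS lines, 65.6, 21.9, and 39.8 TPM in the FL lines, and 3.17, 9.97, and 0.21 TPM in the BM lines (YS against BM 4.08, SE 0.76, limma adjusted p = 0.0075). Ifi204, another PYHIN gene, followed the same order (2.32, SE 0.60, limma adjusted p = 0.023). Aim2 lies beside the PYHIN gene Ifi206 on chromosome 1 and was flat. Nod1, a sensor of bacterial peptidoglycan, was at 5.19, 3.67, and 5.94 TPM in the YS lines, and no BM line exceeded 0.37 TPM (YS against BM 2.37, SE 0.27, limma adjusted p = 0.0014).

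The guanylate-binding proteins, GTPases that open bacterial vacuoles and expose LPS to caspase-11, had a median log2 fold change of 2.00 in YS against BM lines over the 8 genes tested, of which 4 were called (12.8% of all genes were called). The YS and BM lines did not overlap for 1 of the 8, or 12.5%, against 49% of all genes. Gbp6 (2.51, limma adjusted p = 0.085), Gbp7 (2.07, limma adjusted p = 0.049), and Gbp8, named because it completes the count (1.93, limma adjusted p = 0.044), overlapped between the groups. Gbp5 did not (2.12, limma adjusted p = 0.02), at 4.49, 9.54, and 11.3 TPM in the YS lines and 0.79, 2.27, and 0.49 TPM in the BM lines. YS1 was the lowest YS line for all 4. In FL against BM lines 1 of the 8 was called, Gbp8 (1.98, limma adjusted p = 0.051), or 12.5%, near the 10.3% of all genes.

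Of 15 regulators of the sensors tested, none was called by limma in YS against BM lines, where 12.8% of all genes were. Without the fold limit, 3 of the 15 (P2rx4, Dpp8, and Card19) passed the false discovery rate, against 37.9% of all genes. The same number had an unadjusted limma p under 0.05, for which no share of all genes is given here. Nek7, which NLRP3 needs to assemble, ranged from 66.55 to 107 TPM with a log2 fold change of -0.01 (95% interval -0.37 to 0.35), and P2rx7, the ATP receptor upstream of NLRP3, ranged from 31.1 to 49.55 TPM with 0.16 (95% interval -0.25 to 0.56). In FL against BM lines the ATP receptor P2rx4 rose (1.02, SE 0.25, limma adjusted p = 0.021) and the phosphatase Ptpn22 fell (-1.27, SE 0.34, limma adjusted p = 0.033).

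Among genes of pore formation and cell death, Zbp1, a sensor of Z-form nucleic acids, had the largest change, at 48.6, 97.7, and 216 TPM in the YS lines, 152, 18.3, and 42.8 TPM in the FL lines, and 2.00, 18.2, and 0.46 TPM in the BM lines (YS against BM 4.54, SE 1.05, limma adjusted p = 0.016). The protease inhibitor Serpinb1a was lower in FL than in BM lines (-1.65, SE 0.58, limma adjusted p = 0.083). Gsdme (listed as Dfna5), another gasdermin, ranged from 17.9 to 30.6 TPM and was not called in any comparison. Ninj1, which ruptures the plasma membrane after pore formation, ranged from 48.1 to 91.9 TPM without a call.

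Of 9 transcription factors and regulators, Irf8, a factor required for Naip gene expression in macrophages, was at 112, 61.75, and 53.35 TPM in the YS lines, 58.65, 51.3, and 50.2 TPM in the FL lines, and 20.8, 28.5, and 23.7 TPM in the BM lines. It was called in YS against BM (1.54, SE 0.26, limma adjusted p = 0.0048) and in FL against BM (1.11, SE 0.26, limma adjusted p = 0.018). Irf2, known to drive Gsdmd and Casp4, had its highest levels in YS lines, at 81.7, 67.4, and 54.4 TPM against 53.0, 45.3, and 44.35 TPM in the FL lines and 32.8, 40.5, and 27.6 TPM in the BM lines (YS against BM 0.99, SE 0.18, limma adjusted p = 0.0073, just under 2-fold). Spi1, which encodes PU.1, ranged from 364 to 456 TPM and was not called.

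**Figure D5:**
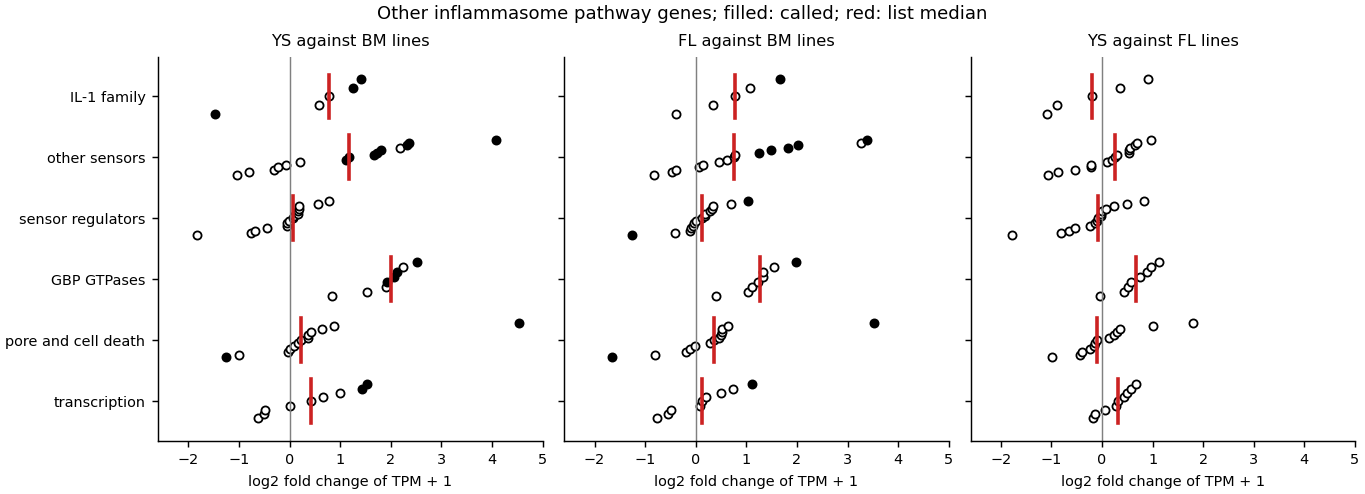
Log2 fold change of TPM + 1 of the other pathway genes that passed the filter, by list, in the 3 comparisons. Filled points were called, open points were not, and red bars are list medians. The medians of the guanylate-binding proteins and of the other sensors were 2.00 and 1.17 in YS against BM, and no point was filled in YS against FL.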

How the data were processed

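RNA of the 9 lines was poly(A) selected, made into strand-specific libraries, and sequenced from one end (75 nt). The authors deposited TPM for 24411 gene symbols, and the submitters' processing notes name Trim Galore 0.6.6, STAR 2.7.9a, and RSEM 1.3.3. The genome build and annotation are not given in the sources used here. TPM keeps no read number, so depth is unknown, no counting error is given, and the spread of 3 lines is the measure of precision. Lines were grouped by the labels.

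Values of log2(TPM + 1) were fitted in limma 3.58.1 (R 4.3.3), as 1 model of all 9 libraries with an intensity trend and Benjamini-Hochberg adjustment within each comparison. The study's own tests used raw counts, so its thresholds (false discovery rate 0.1, 2-fold) but not its test were kept. Single genes were also compared by exact two-sided permutation tests (SciPy 1.17.1). The fit was tested on simulated data in which 200 genes were changed 4-fold in the YS lines alone. In YS against BM, 86% of these were called, and 5.49% of the calls were of unchanged genes. Changes near 2-fold were not simulated.

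The 10 genes, the pathway lists, and the markers were chosen with earlier results of these data known, and the motifs with the promoter windows in view. Named were all 10 genes, up to 3 called genes per list with the largest change over the comparisons, 11 genes chosen by role, and the genes most like the 2 most variable of the 10. Nlrp1c-ps, Casp12, Spi1, Il18bp, Gbp8, Card19, Dpp8, Nlrx1, and the markers were named outside this rule after their values were seen. Some genes that the rule names are not reported here. Of the 80 pathway genes, 6 were matched by older symbols. Shared windows and motifs were counted by exact match in GENCODE M21 transcripts (GRCm38) and RefSeq promoters (GRCm38.p6). The alternatives tried were a pseudocount of 0.1 or 4, no filter or one of 5 TPM, quantile normalization, median-of-ratios scaling, no variance trend, other thresholds, a replicate block, fits of the 6 libraries compared, and fits without each line.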

Additional observations from a re-analysis of the deposited data

How the results depend on the processing

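Of 600 log2 fold changes of the 10 genes (30 under 20 alternatives), 541 kept their direction and their side of the thresholds, 29 lost a call, 13 gained one, and 17 changed sign. Every sign change was of a value that was not called. In YS against BM, quantile normalization and median-of-ratios scaling gave -0.103 and -0.068 for Aim2, -0.013 and -0.005 for Naip5, and -0.096 and -0.11 for Gsdmd, and with a line left out Gsdmd ranged from -0.089 to 0.103. In FL against BM, Pycard was at -0.03 under both scalings and ranged from -0.042 to 0.258 with a line left out, and Nlrp1b from -0.252 to 0.233. In YS against FL, the same range was -0.203 to 0.70 for Nlrc4 and -0.21 to 0.453 for Casp1. Quantile normalization moved the median of all genes in YS against BM from 0.11 to -0.01.

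The number of the 10 genes called in YS against BM (2) became 4 without the fold limit and ranged from 1 to 3 with a line left out. In FL against BM (2) it became 1 without the filter and 1 at a false discovery rate of 0.05, and ranged from 0 to 2 with a line left out. In YS against FL (1) it became 0 without the filter, without the variance trend, with the replicate block, with only the 6 libraries compared, and at a false discovery rate of 0.05, and 4 without the fold limit, and ranged from 0 to 1 with a line left out. Of the other pathway genes, 65 in the main fit, those called without the fold limit numbered 32 in YS against BM (19), 23 in FL against BM (12), and 6 in YS against FL (0). The shares of all genes were 37.9%, 27.6%, and 12.8%. With a line left out the pathway genes called ranged from 13 to 25, from 6 to 14, and from 0 to 4. The shares of all genes then ranged from 9.31% to 13.4%, from 7.25% to 11.2%, and from 1.5% to 4.72%. In YS against FL there were 2 at a pseudocount of 0.1 (3.89% of all genes) and 1 under median-of-ratios scaling (3.71%). The cause of these changes was not tested.

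Over all genes, YS against FL had 446 calls, and 280 at a pseudocount of 4, 81 with only the 6 libraries compared, 175 and 178 without FL2 and FL3, 285 and 294 without BM1 and BM3, 234 at a false discovery rate of 0.05, and 1500 without the fold limit, which gave 4455 in YS against BM (1504) and 3247 in FL against BM (1211). Lines share the numbers 1 to 3 across origins, with no statement that these are pairs. The 9 same-numbered pairs had correlations of deviations from -0.12 to 0.09, and 2 of 9 lines correlated best with a line of their own number. The replicate block ended the call of Gsdmd in YS against FL (1.09, limma adjusted p = 0.11) and no other call of the 10 genes. Without read depth, values near 0, such as those of Il1b, cannot be given a counting error.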

Other observations

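Some genes of the pathway lists, picked after their values were seen, went beyond the rule for named genes. Nlrx1, a mitochondrial relative of the NLR sensors, was at 20.1, 14.6, and 27.0 TPM in the YS lines, 14.3, 11.6, and 5.48 TPM in the FL lines, and 4.74, 5.82, and 5.47 TPM in the BM lines. It was called in YS against BM (log2 fold change 1.73, limma adjusted p = 0.0079). Card19 (listed as 1110007C09Rik), a mitochondrial protein with a caspase recruitment domain, was at 164, 239, and 212 TPM in the YS lines, below the 308 to 415 TPM of FL lines and the 319 to 331 TPM of BM lines. Its change in YS against FL was -0.81 (SE 0.16, limma adjusted p = 0.032), less than 2-fold.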
